A study of Homo sapiens with 24 samples.

Results

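Chromosome 7 outside the EGFR and MET regions was taken from 8 lists of chromatin immunoprecipitation sequencing (ChIP-seq) peaks of HCC827 cells. Members were the peaks whose midpoint lay below 54 Mb (the short arm), between 63 and 85 Mb, or above 120 Mb (the last 2 windows together are called the long arm) in GRCh37. They numbered 550 of 13347 matched peaks, with 382 on the short arm and 168 on the long arm. The windows left out held 890 peaks around EGFR and 224 around MET, and the other 21 autosomes held 11364.

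HCC827 is an established human lung adenocarcinoma line with an activating EGFR mutation and extra copies of EGFR. Parental cells had no drug and resistant cells were grown in 1 µM osimertinib, an inhibitor of mutant EGFR. In both states, wild-type (WT) cells and cells expressing METTL7A with a MYC tag and a FLAG tag were immunoprecipitated, either with a control IgG or with the MYC-tag antibody. METTL7A belongs to the methyltransferase-like proteins and sits in membranes, and the tag is a stretch of human MYC, so MYC itself carries the same residues in every group. All groups are thus the same line, and the labels do not say whether the resistant or the tagged cells were 1 clone or a pool, nor which promoter drove the tagged protein. In all there were 24 samples, 2 for each of 12 groups, which the labels call biological replicates. The 8 lists drew on 16 of them, 1 list per group, and for the 8 input samples no separate list was used here. In the order parental WT IgG, parental WT MYC-tag, parental METTL7A IgG, parental METTL7A MYC-tag, and then the same 4 in resistant cells, the lists held 1444, 1005, 70, 2271, 2529, 2767, 96 and 3165 peaks. Read depth is unknown from peak lists, and a list has no replicate error, so the tests below count peaks and not cultures. Neighbouring peaks are not independent, which makes p-values over peaks too small.

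The short arm of chromosome 7 carries the HOXA cluster, whose homeobox genes set position along the body axis, and several growth-factor genes. The part of the long arm next to the centromere holds the genes of the Williams-Beuren region, and its far end holds SHH, EZH2 and INSIG1. Gains of chromosome 7, often with EGFR, are a known feature of lung adenocarcinoma. Peak lists report enriched positions and no copy number, and the lists here were not corrected for it.

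Member peaks covered the start of 19 genes with a known position and a RefSeq promoter. The following 4 promoters were chosen by their peaks. HOXA9, a homeobox transcription factor, and IRF5, a transcription factor of interferon signalling, had the highest peaks over such a start in the 2 WT MYC-tag lists. HERPUD2, related to a factor of protein degradation at the endoplasmic reticulum, and INSIG1, which holds back sterol synthesis, lay at positions with peaks in 3 lists. The INSIG1 start itself was covered in 2 lists. Each promoter shown is the 250 bases before the gene's RefSeq start in GRCh38.p14, 5′ to 3′ on the gene's own strand. That strand is minus for HOXA9 and HERPUD2 and plus for IRF5 and INSIG1. Capitals mark the E-box CACGTG, the letters that MYC prefers.
HOXA9: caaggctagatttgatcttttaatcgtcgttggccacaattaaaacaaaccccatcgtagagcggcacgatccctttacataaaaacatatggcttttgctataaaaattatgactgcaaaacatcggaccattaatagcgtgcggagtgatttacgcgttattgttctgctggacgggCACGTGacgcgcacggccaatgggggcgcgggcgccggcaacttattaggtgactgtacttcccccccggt
INSIG1: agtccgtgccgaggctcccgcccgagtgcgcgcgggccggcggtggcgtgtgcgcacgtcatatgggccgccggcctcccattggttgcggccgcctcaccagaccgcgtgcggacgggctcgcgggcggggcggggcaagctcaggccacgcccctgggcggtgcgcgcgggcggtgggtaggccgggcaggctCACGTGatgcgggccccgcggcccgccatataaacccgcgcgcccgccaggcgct
HERPUD2: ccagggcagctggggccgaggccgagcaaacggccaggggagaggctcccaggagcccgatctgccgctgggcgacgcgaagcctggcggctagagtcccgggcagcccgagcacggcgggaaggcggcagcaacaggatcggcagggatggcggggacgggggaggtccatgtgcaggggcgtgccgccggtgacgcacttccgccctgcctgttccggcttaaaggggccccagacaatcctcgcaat
IRF5: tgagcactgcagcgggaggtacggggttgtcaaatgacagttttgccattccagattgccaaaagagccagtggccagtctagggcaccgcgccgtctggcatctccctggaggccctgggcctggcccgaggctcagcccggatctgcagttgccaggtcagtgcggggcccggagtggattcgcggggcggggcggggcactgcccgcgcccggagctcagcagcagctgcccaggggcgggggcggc
The E-box reads the same on both strands. It occurred once each in the HOXA9 and INSIG1 windows and not in the HERPUD2 and IRF5 windows. Of the 19 genes, 3 (HOXA9, INSIG1 and FOXK1, a forkhead factor) had it in this window, or 15.8%, against 6.49% of 27305 RefSeq promoter windows of the same length. The 19 starts were taken over all lists, IgG included. The FOXK1 start was covered only in resistant WT IgG, and the INSIG1 start in parental WT IgG and parental WT MYC-tag. Median GC content was 70% in the 19 and 58% in all of them. These are descriptions of letters, and a match does not mark a binding site.

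The short arm had more peaks per Mb than the other autosomes in 7 of 8 lists, and the difference passed the test in 6, by 1.44 to 2.16 times. In the order of lists given above, it held 53, 34, 1, 80, 62, 68, 3 and 81 peaks over its 54 Mb. Densities were 0.981 peaks per Mb in parental WT IgG, 0.630 in parental WT MYC-tag and 1.48 in parental METTL7A MYC-tag, beside 0.460, 0.292 and 0.698 on the other autosomes. The resistant lists gave 1.15 (WT IgG), 1.26 (WT MYC-tag) and 1.5 (METTL7A MYC-tag), beside 0.797, 0.874 and 1.02. The short arm was therefore denser than the other autosomes in each of these 6 lists, whichever antibody was used.

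Ratios to the other autosomes were 2.13 (95% exact interval 1.59 to 2.81) in parental WT IgG, 2.16 (1.48 to 3.04) in parental WT MYC-tag and 2.12 (1.68 to 2.66) in parental METTL7A MYC-tag. They were 1.44 (1.10 to 1.85), 1.44 (1.11 to 1.83) and 1.48 (1.17 to 1.84) in the resistant WT IgG, WT MYC-tag and METTL7A MYC-tag lists. Adjusted p-values of the two-sided exact binomial test, by the Benjamini-Hochberg method over 184 tests (23 chromosomes or arms in 8 lists), ran from 1.03e-08 (parental METTL7A MYC-tag) to 0.0144 (resistant WT IgG). The METTL7A IgG lists held 1 and 3 short-arm peaks, and their intervals (0.0202 to 4.69 and 0.474 to 7.21) cover a doubling as well as no difference. A higher density was a frequent outcome, called in 23.4% of the 184 tests and in 22% of the tests of other autosomes. Among 22 units (the 21 autosomes and this arm) the short arm ranked 3, 3 and 5 in the 3 long parental lists and 8, 7 and 7 in the 3 long resistant ones, so other autosomes were denser in each. The 6 lists called fell to 3 when peaks within 100 kb were merged, to 2 when the first and last 5 Mb of every chromosome were left out, and to 2 when the arm was ended at 53 Mb, a setting chosen after seeing the data.

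**Figure D1:**
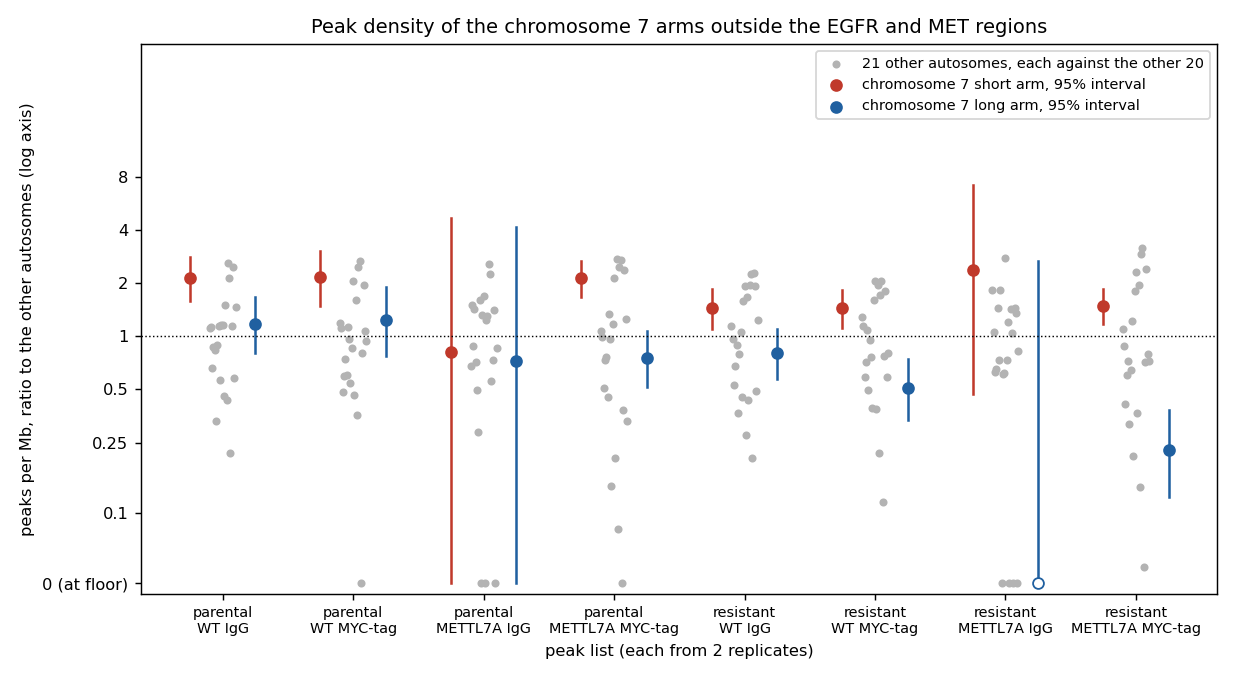
Peaks per Mb of each chromosome 7 arm over the density of the other autosomes (log axis) in each of the 8 lists, with 95% exact intervals, and each of the 21 other autosomes against the other 20 as grey points. Points and intervals that reach 0 are drawn at the floor, with a hollow circle for an arm at 0, and the short arm lies above 1 with its whole interval in 6 lists.

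Taken as a whole, the long arm did not share this excess. It held 33, 22, 1, 32, 39, 27, 0 and 14 peaks over 60.8 Mb. Its ratio to the other autosomes was 1.18 (0.808 to 1.67) in parental WT IgG, 1.24 (0.772 to 1.89) in parental WT MYC-tag, 0.754 (0.514 to 1.07) in parental METTL7A MYC-tag and 0.805 (0.571 to 1.10) in resistant WT IgG, and none of these passed the test. It was lower than the other autosomes in 2 lists, at 0.508 (0.334 to 0.741, adjusted p = 0.000391 by the exact binomial test) in resistant WT MYC-tag and 0.227 (0.124 to 0.381, adjusted p = 3.91e-12) in resistant METTL7A MYC-tag. A lower density was called in 28.3% of the 184 tests and in 29.8% of those of other autosomes, so 2 of 8 lists is close to that background. In those same 2 lists the arm ranked 18 and 19 of 22, and with peaks within 100 kb merged 1 list was called.

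Within a list, the short arm was denser than the long arm in each of the 8 lists, and 5 lists passed the test. The METTL7A IgG lists rest on 1 peak against 1 in parental cells and 3 against 0 in resistant cells. The ratio of the 2 densities in those 5 was 1.81 in parental WT IgG (adjusted p = 0.0110), 2.81 in parental METTL7A MYC-tag (8.07e-07), 1.79 in resistant WT IgG (0.0100), 2.84 in resistant WT MYC-tag (4.07e-06) and 6.51 in resistant METTL7A MYC-tag (9.93e-14), by the exact binomial test adjusted over 8 lists. In parental WT MYC-tag the ratio of 1.74 had an interval of 0.989 to 3.12 and missed the threshold (adjusted p = 0.0595, exact binomial test). With peaks within 100 kb merged, 2 lists were called. No other pair of arms was compared in this way, so these calls have no background of their own. In the density tests above, 22% of those of other autosomes were called higher and 29.8% lower, so differences between chromosomes were frequent.

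Short-arm peaks were gathered at the 2 ends of the window. The first 5 Mb held 165 of the 382 (43.2%), of which 44, 72, 35, 2 and 12 lay in its successive Mb from the tip. The last 1 Mb before the EGFR region held 54 (14.1%), and the 44 Mb from 5 to 49 Mb held only 149 (39.0%). Over those 44 Mb the ratio to the other autosomes was 1.14, 1.4 and 0.847 in the 3 long parental lists and 0.684, 0.858 and 0.537 in the 3 long resistant ones. Of these 6 intervals 5 include 1, and that of resistant METTL7A MYC-tag (0.344 to 0.801) lies below it.

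In the first 5 Mb the lists held 27, 4, 0, 36, 31, 23, 1 and 43 peaks, and the ratio was 11.7 in parental WT IgG, 2.74 in parental WT MYC-tag, 10.3 in parental METTL7A MYC-tag, 7.78 in resistant WT IgG, 5.26 in resistant WT MYC-tag and 8.47 in resistant METTL7A MYC-tag. Chromosome ends were rich in peaks elsewhere too. Over the 37 first or last 5 Mb of the other autosomes the pooled ratio was 3.13 to 5.03 in these 6 lists. The 7p end stood at or above most of them, with 3, 16, 4, 6, 8 and 8 of the 37 at its level or higher in the same order. MAD1L1, which encodes a protein of the mitotic spindle checkpoint, lies in this stretch and held 39 peaks in 6 lists (7, 1, 11, 3, 5 and 12), the highest at 5.97. Peak height here is the lower of the 2 replicates' −log10 p.

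The last 1 Mb before the EGFR region held 3, 10, 1, 14, 5, 9, 1 and 11 peaks. Ratios ran from 6.27 in resistant WT IgG and 6.52 in parental WT IgG to 20.1 in parental METTL7A MYC-tag and 34.3 in parental WT MYC-tag among the 6 long lists. The Mb just beyond the edge held 15, 41, 1, 45, 29, 43, 6 and 47 peaks, 227 in all. The nearest member to the edge lay at chr7:53977860-53978373 with a height of 5.62 in parental METTL7A MYC-tag, and the nearest peak outside it at chr7:54052234-54052922 with 4.60 in parental WT MYC-tag. Peaks thus lay in both Mb beside the edge, while the next 4 Mb inward (49 to 53 Mb) held 14. No protein-coding gene lies between POM121L12 and VSTM2A in the RefSeq table, and the peaks of this Mb lie in that interval.

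On the long arm, the window between the EGFR and MET regions was poor in peaks. It held 2, 2, 0, 5, 10, 6, 0 and 4, with ratios of 0.198, 0.311, 0.326, 0.570, 0.312 and 0.179 in the 6 long lists. Its first peak inside the 63 Mb edge lay at chr7:64349993-64350560 and the nearest outside at chr7:62574152-62575216. Beyond the MET region the lists held 31, 20, 1, 27, 29, 21, 0 and 10 peaks. Ratios were 1.74 (1.17 to 2.48), 1.77 (1.07 to 2.75) and 0.997 (0.655 to 1.46) in the long parental lists. They were 0.938 (0.627 to 1.35), 0.619 (0.383 to 0.949) and 0.254 (0.122 to 0.468) in the resistant ones. The intervals of parental WT IgG and WT MYC-tag thus lay above 1, and those of resistant WT MYC-tag and METTL7A MYC-tag below it. The last 5 Mb took 45 of the 139 peaks of this window. There the ratio was 5.22, 3.43 and 2.87 in the parental lists and 2.01, 1.14 and 0.788 in the resistant ones. Of the 37 ends of the other autosomes, 13, 15 and 16 were at this level or higher in the parental lists and 25, 28 and 29 in the resistant ones. At the 85 Mb edge the last member lay at chr7:84814039-84816284 and the next peak at chr7:85052526-85053865. At 120 Mb the last peak outside lay at chr7:119913201-119913548 and the first member at chr7:121035875-121036598.

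**Figure D2:**
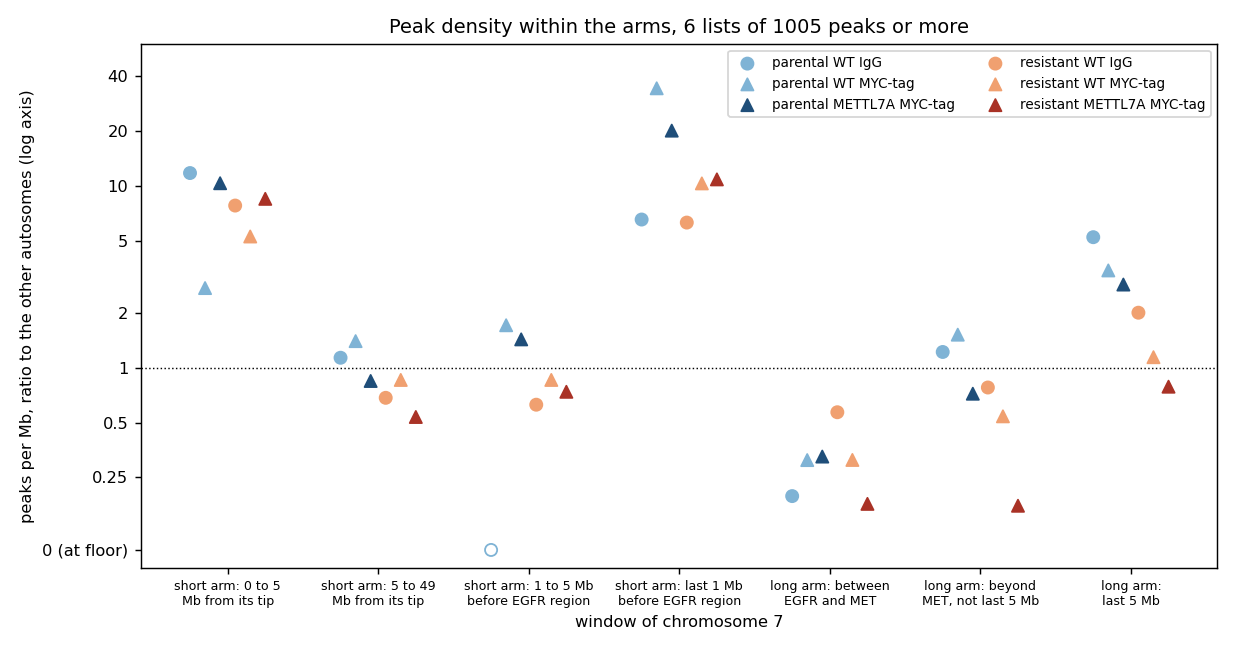
Ratio of peaks per Mb to the other autosomes (log axis) in 7 windows of the arms, 1 point for each of the 6 lists of 1005 peaks or more, with a hollow point at the floor for 0. Points stand high in the 5 Mb at the tip of the short arm and in the last 1 Mb before the EGFR region, between 0.537 and 1.4 over the 44 Mb from 5 to 49 Mb from the tip, and below 1 in all 6 lists between the EGFR and MET regions.

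Reproducible peaks, those with a global irreproducible discovery rate (IDR) of 0.05 or less, numbered 3 among the 550 members. They made up 0.524% of short-arm and 0.595% of long-arm peaks. The share was 3.41% of all 13347 matched peaks, with 28.7% in the EGFR region and 1.59% on the other autosomes. In the 3 lists concerned (parental WT MYC-tag, METTL7A MYC-tag and METTL7A IgG) it was 2.59%, 6.38% and 75.7% of all peaks. On the other autosomes of those lists it was 0.883%, 2.48% and 74.2%. The peak at chr7:53862028-53862875 in parental WT MYC-tag had −log10 p of 10.3 and 12.3 in its 2 replicates and a global IDR of 0.0421. The peak at chr7:53455148-53456040 in parental METTL7A MYC-tag had 9.32 and 18.4 and an IDR of 0.0152. Both lie in the last 1 Mb before the EGFR region. The other one, at chr7:158327068-158327710 within PTPRN2, a receptor-type tyrosine phosphatase gene of secretory granules, came from the parental METTL7A IgG list with a height of 4.24 and an IDR of 0.000522.

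Few positions came back in several lists. After merging peaks that overlapped by 1 bp, the members made 478 positions, 55 of them (11.5%) with a peak in 2 or more lists, beside 11.5% of 9881 positions on the other autosomes. The last 1 Mb before the EGFR region stood apart by value, with 13 of 30 positions (43.3%) in 2 or more lists, against 31 of 293 (10.6%) on the rest of the short arm and 11 of 155 (7.1%) on the long arm. The EGFR region itself had 64.7%. The merged position chr7:53861161-53862996 had a peak in 5 lists, at heights of 10.3 (parental WT MYC-tag), 4.68 (parental METTL7A MYC-tag), 9.497 (resistant WT IgG), 7.62 (resistant WT MYC-tag) and 6.48 (resistant METTL7A MYC-tag). The position chr7:53920619-53922065 also had 5, at 5.44 (parental WT IgG), 3.12 (parental WT MYC-tag), 8.84 (parental METTL7A MYC-tag), 3.75 (resistant WT IgG) and 3.04 (resistant METTL7A MYC-tag). Both positions had a peak with IgG and with the MYC-tag antibody, and in WT and in METTL7A cells, and 4 more positions in this Mb had peaks in 3 lists.

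Elsewhere on the short arm, 31 positions had a peak in 2 or more lists, and the 4 with peaks in 3 lists lay in gene bodies near the tip or at a start. Within ADAP1, a gene for a phosphoinositide-binding Arf regulator, chr7:984997-986097 had a height of 3.96 in parental WT MYC-tag, 4.30 in parental METTL7A MYC-tag and 6.61 in resistant METTL7A MYC-tag. Within MAD1L1, chr7:2018723-2020332 had 3.26 in parental WT IgG, 3.10 in resistant WT MYC-tag and 5.12 in resistant METTL7A MYC-tag. Within INTS1, a subunit gene of the Integrator complex that processes small nuclear RNAs, chr7:1510352-1511806 had 4.28 in parental WT IgG, 4.45 in parental METTL7A MYC-tag and 4.08 in resistant METTL7A MYC-tag. At the HERPUD2 start, chr7:35734106-35735094 had 4.50 in parental WT IgG, 4.80 in resistant WT IgG and 3.82 in resistant WT MYC-tag. The ADAP1 position had no IgG peak, while the other 3 were each in at least 1 IgG list. On the long arm the only position in 3 lists was chr7:155089268-155090304 at INSIG1. Its heights were 3.70 in parental WT IgG, 3.47 in parental WT MYC-tag and 4.15 in resistant WT MYC-tag. Only the first 2 of these peaks covered the INSIG1 start.

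The highest member of all was in resistant WT IgG at chr7:36010939-36011379, with 11.8, and the same list had 10.3 at chr7:72848133-72848982 next to the start of FZD9, a Wnt receptor gene, and 8.34 within ATG9B, a gene of the autophagy pathway. Parental WT IgG had 7.90 within SMARCD3, a subunit gene of the SWI/SNF chromatin remodeller, 7.55 within PRKAR1B, a regulatory subunit gene of protein kinase A, 6.94 within TRIL, an accessory gene of toll-like receptor signalling, and 5.27 near the start of CALN1. The HOXA9 start was covered by a peak of 7.28 in parental WT MYC-tag at chr7:27204553-27205383. A peak of 6.29 in parental WT IgG, at chr7:27204514-27205059, overlapped that peak without covering the start. The IRF5 start held 6.61 in resistant WT MYC-tag at chr7:128577809-128578678, followed in that list by 5.07 within TSPAN33, a tetraspanin gene. Parental METTL7A MYC-tag had 6.68 at chr7:157321573-157322052 and 6.55 within IMPDH1, a gene of guanine nucleotide synthesis. Resistant METTL7A MYC-tag had 7.40 at chr7:53963394-53964015, 7.03 within PKD1L1, and on the long arm 5.66 within NOS3, the endothelial nitric oxide synthase gene, and 5.48 at chr7:66309412-66310101. In resistant METTL7A IgG the highest was 4.73 within FAM20C, a gene for a kinase of secreted proteins.

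Known genes of both arms were counted from a list of 34 short-arm and 49 long-arm genes. On the short arm, 21 of 34 had a peak on the body or within 1000 bp of either end of the gene in any list and 6 had one in 2 or more lists. Of 12 developmental genes 7 had a peak, with HOXA9 in 3 lists and HOXA10 in 2. Of 10 signalling genes 5 had one, with IGFBP3, which binds insulin-like growth factors, in 3 lists at up to 5.47, and none at RAC1, INHBA, IGFBP1, IL6 or AHR. Of 9 chromatin and RNA genes 7 had one, among them a peak of 6.97 in resistant WT IgG within 1000 bp of the starts of both CBX3, a heterochromatin protein gene, and HNRNPA2B1, an RNA-binding protein gene. On the long arm, 18 of 49 had a peak. In the window between the EGFR and MET regions 2 of 16 did, POR and MAGI2 in 1 list each, and the Williams-Beuren genes BAZ1B, ELN, LIMK1, CLIP2 and GTF2I had none. Beyond the MET region 16 of 33 did. PTPRN2 was in 7 lists with 16 peaks of up to 4.76, GRM8 and EPHB6 were in 3, and CUL1 and EZH2 in 2. The EZH2 peaks, at or near the start of this Polycomb methyltransferase gene, were 4.29 in parental WT IgG and 5.31 in parental WT MYC-tag. IgG lists counted like any other, and the share over all genes of the arms was not computed. Long genes also have more room for a peak, so counts were not compared between genes or groups of genes.

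Pooled over lists, peak heights on the arms were close to those of the other autosomes. The median was 4.42 on the short arm, 4.27 on the long arm and 4.35 on the other autosomes, and 29.1%, 25.6% and 27.3% reached 5 in both replicates. Single lists differed in both directions. On the short arm 35.3% reached 5 in parental WT MYC-tag against 15.8% on the other autosomes, and 25% against 15.8% in resistant WT MYC-tag, but 29.0% against 36.6% in resistant WT IgG. In parental WT MYC-tag the long-arm median was 3.47 against 4.27. The last 1 Mb before the EGFR region had a median of 5.43 with 59.3% reaching 5, beside 4.32 and 24.1% on the rest of the short arm and 6.54 and 77.5% in the EGFR region. By list, that Mb had medians of 5.44, 5.62, 5.79, 6.28, 6.54 and 4.82 in the 6 long lists (3 to 14 peaks each), against 3.70, 4.31, 4.69, 4.32, 4.14 and 4.49 on the rest of the arm. It was higher in 6 of 6, though heights are the authors' values and have no common scale across lists.

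**Figure D3:**
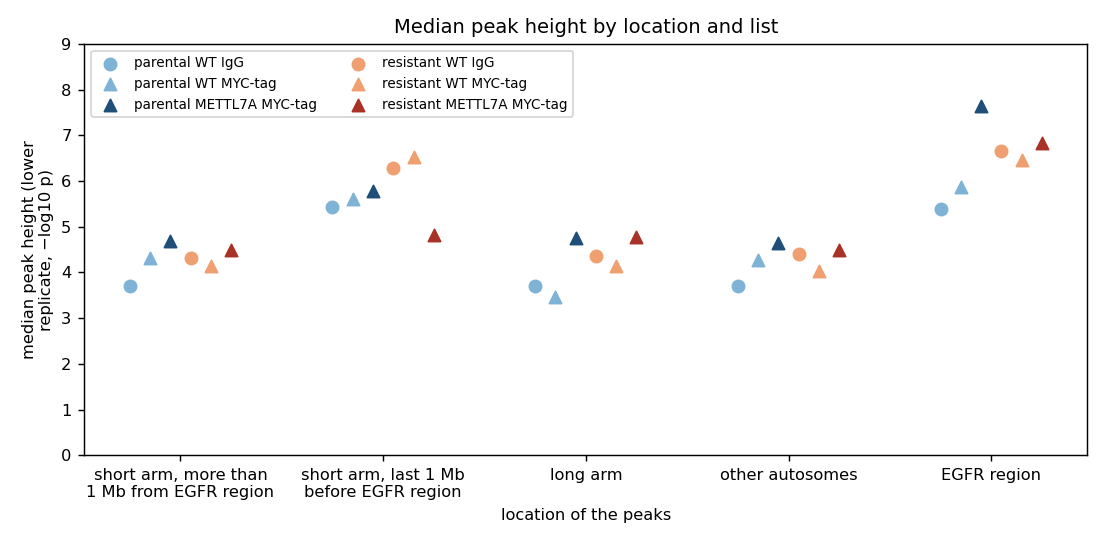
Median peak height (lower replicate −log10 p) in 5 locations, 1 point for each of the 6 lists of 1005 peaks or more. The last 1 Mb before the EGFR region lies above the rest of the short arm in all 6 lists and below the EGFR region in 4, and the medians of the long arm lie between 3.47 and 4.77 beside 3.70 to 4.65 on the other autosomes.

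Resistant cells were compared with parental cells of the same genotype and antibody, to ask whether the arms differed between drug-resistant and drug-naive cells. On the short arm the share of peaks (arm over arm plus other autosomes) was 4.07%, 4.11% and 4.05% in parental WT IgG, WT MYC-tag and METTL7A MYC-tag, and 2.78%, 2.78% and 2.85% in their resistant counterparts. The 3 values of each state lay close together and the 2 states did not overlap. The odds ratios were 0.675, 0.663 and 0.696, yet none of the 3 pairs passed Fisher's exact test (adjusted p = 0.294, 0.353 and 0.224 over 276 tests of 23 units in 12 list pairs). Lower calls made up 4.35% and higher calls 4.35% of the 92 tests of resistant against parental lists. The density ratio of these 3 resistant lists lay wholly below that of the 3 parental lists in 1 of 23 units (4.35%), the short arm itself. It lay wholly above in 1 of 23 (4.35%), chromosome 11.

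An exact two-sided permutation over these 6 lists gave p = 0.1, the smallest it can give, for a mean difference of −0.56 on the log2 scale. The 2 METTL7A IgG lists, with 1 and 3 short-arm peaks, went the other way, and with them the difference was −0.13 (p = 0.743, exact permutation over 8 lists, 70 arrangements). The latter value changed sign, to 0.23, with the arm ended at 53 Mb. The 3 resistant lists were also the longest (2529, 2767 and 3165 against 1444, 1005 and 2271 peaks), and the part of list length in the result was not tested.

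By value, the lower short-arm share was also seen in some settings that left out the ends of the window. With the first and last 5 Mb of every chromosome and the last 2 Mb before the edge left out together, a setting chosen after seeing the data, the parental ratios were 1.162 to 1.77 and the resistant ones 0.794 to 1.03, again without overlap. With the arm ended at 53 Mb they were 1.55 to 2.05 and 1.27 to 1.35. In both settings the short arm was again the 1 unit of 23 (4.35%) with the resistant lists wholly lower. With peaks within 100 kb merged it was 1 of 3 such units (13%). With only peaks of height 5 or more in both replicates they overlapped, at 2.07 to 4.83 against 1.14 to 2.28. Over the window from 5 to 49 Mb the states overlapped too, with 0.847 in parental METTL7A MYC-tag and 0.858 in resistant WT MYC-tag.

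Long-arm shares were lower in resistant cells in 4 of 4 pairs, and 2 of them passed the test. Lower calls numbered 4 of the 92 tests of this contrast (4.35%), these 2 included. How often other units went the same way in all pairs was not counted. Each resistant list was also longer than its parental counterpart, and the part of list length in the result was not tested. The share was 2.70% in parental and 1.12% in resistant WT MYC-tag (odds ratio 0.408, adjusted p = 0.0414 by Fisher's exact test over 276), and 1.66% and 0.505% in METTL7A MYC-tag (odds ratio 0.307, adjusted p = 0.00569). In WT IgG it was 2.57% against 1.77% (odds ratio 0.681, adjusted p = 0.479, Fisher's exact test), and in METTL7A IgG 1 peak against 0. Both calls were lost when peaks within 100 kb were merged (adjusted p = 0.576 and 0.470, Fisher's exact test) and when the chromosome ends were left out (adjusted p = 0.105 and 0.0942). Over lists, the mean log2 ratio was −1.22 ± 0.77 (SD, n = 4) in resistant and 0.08 ± 0.33 (SD, n = 4) in parental cells, a difference of −1.30 (p = 0.0571, exact permutation, smallest possible 0.0286). The 4 lists of a state differ in genotype and antibody and come from the same line. In this and the other comparisons over lists, the spread and the p-value therefore do not measure variation between cultures. With the lists paired by genotype and antibody, a test added after the data were seen, the 4 differences were −0.55, −1.29, −1.63 and −1.71 (p = 0.125, exact paired permutation, the smallest 4 pairs can give), and the −1.63 rests on 1 peak against 0.

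**Figure D4:**
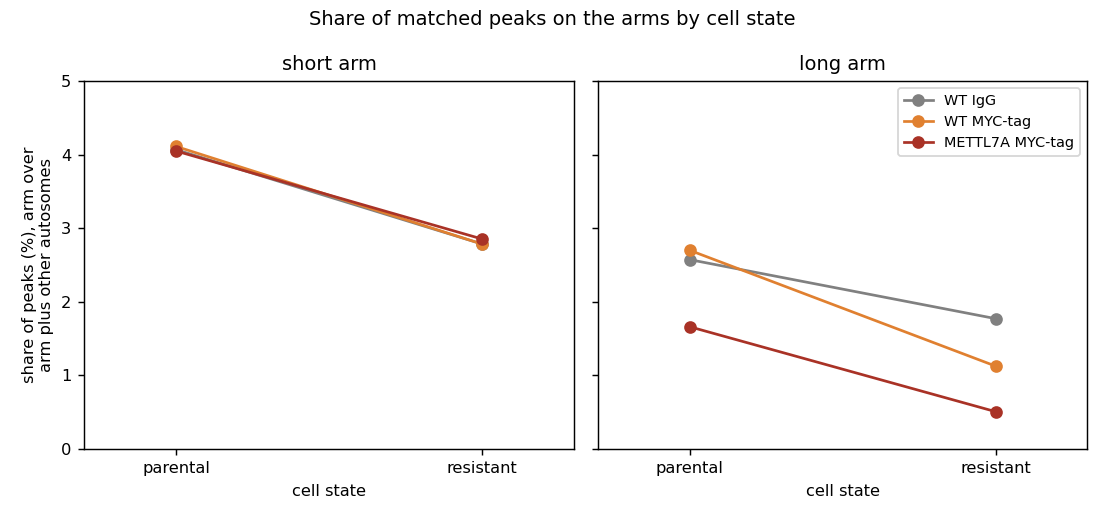
Share of peaks on each arm, in percent of the arm plus the other autosomes, in parental and resistant cells for the 3 pairs of lists of 1005 peaks or more, with a line joining the lists of the same genotype and antibody. On the short arm the 3 lines run together from 4.05 to 4.11% down to 2.78 to 2.85%, and on the long arm all 3 run down from different levels.

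METTL7A and WT cells were compared within a state and antibody, to ask whether the tagged protein changed the share of peaks on these arms. On the short arm the MYC-tag shares were 4.05% with METTL7A and 4.11% in WT in parental cells (odds ratio 0.976, adjusted p = 1 by Fisher's exact test), and 2.85% and 2.78% in resistant cells (odds ratio 1.02, adjusted p = 1). Long-arm shares were 1.66% and 2.70% (odds ratio 0.604, adjusted p = 0.452, Fisher's exact test) and 0.505% and 1.12% (odds ratio 0.454, adjusted p = 0.193). None of the 8 tests of the arms passed, where 4.35% of the 92 tests of this contrast were called higher and 3.26% lower. Over lists the METTL7A minus WT difference was 0.02 on the short arm (p = 0.886, exact permutation) and −0.81 on the long arm (p = 0.2). The long-arm differences were negative in 4 of 4 pairs (p = 0.125, exact paired permutation, the smallest 4 pairs can give). In the IgG pairs the METTL7A lists held only 1 and 0 long-arm peaks, so the 0.5 added to counts weighs on those differences. The sign of the short-arm value changed under several other settings.

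The MYC-tag antibody and IgG gave nearly equal short-arm shares in WT cells. In parental cells these were 4.11% and 4.07% (odds ratio 1.02, adjusted p = 1 by Fisher's exact test), and with both antibodies 2.78% in the resistant state (odds ratio 0.999, adjusted p = 1). Long-arm shares were 2.70% and 2.57% in parental WT and 1.12% and 1.77% in resistant WT cells (odds ratio 0.635, adjusted p = 0.416, Fisher's exact test). None of the 8 tests of the arms passed, where 1.09% of the 92 tests of this contrast were called higher and 2.17% lower. Over lists the differences were −0.01 on the short arm (p = 0.914, exact permutation) and −0.41 on the long arm (p = 0.571). In METTL7A cells the IgG lists held 5 members in all, too few to set a share beside that of the MYC-tag lists.

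Most positions did not overlap between the lists of a pair, on the short arm as on the other autosomes. In METTL7A MYC-tag, 13 of 81 resistant short-arm peaks (16.05%) overlapped 13 of 80 parental ones (16.2%), beside 10.8% and 15.6% on the other autosomes. In WT IgG it was 5 of 62 (8.06%) and 5 of 53 (9.43%), beside 6.97% and 12.2%, and in WT MYC-tag 3 of 68 (4.41%) and 4 of 34 (11.8%), beside 3.45% and 10.5%. On the long arm the overlap was 1 or 2 peaks in each of these pairs. Between antibodies in WT cells, 5 of 34 MYC-tag peaks of the short arm (14.7%) overlapped 5 of 53 IgG peaks (9.43%) in the parental state, beside 11.1% and 7.2% on the other autosomes. In the resistant state 7 of 68 (10.3%) overlapped 7 of 62 (11.3%), beside 10.5% and 11.8%. Between METTL7A and WT cells with the MYC-tag antibody, 6 of 80 (7.5%) overlapped 7 of 34 (20.6%) in the parental state, beside 3.32% and 7.94% on the other autosomes. In the resistant state 7 of 81 (8.64%) overlapped 7 of 68 (10.3%), beside 5.29% and 6.19%. Neither state had an overlap on the long arm in this comparison. These overlaps were not tested.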

How the data were processed

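The authors deposited 8 peak lists in the 20-column layout of the irreproducible discovery rate method, each matching peaks of 2 replicates. The height of a peak is the lower of 2 −log10 p-values, 1 per replicate, as the authors deposited them. The global IDR is held as −log10 as well. The lowest height was 3.00. Tools listed in the submitters' processing notes, in no stated order, are MACS2 2.2.7.1, Bowtie2 2.4.2, bedtools 2.30, deepTools 3.5.1, SAMtools 1.16, FastQC and Trimmomatic, and their build is GRCh37. Which library was the control for peak calling, and any blacklist filter, were not stated in the sources used here.

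Spans ran to the largest peak end over the 8 lists (158.8 Mb for chromosome 7, 2717 Mb for autosomes 1 to 6 and 8 to 22). Centromeres and other stretches without assembled sequence were not taken out of the spans of the other autosomes. The chromosome 7 windows leave out the centromere, so ratios to the other autosomes may be too high, by an amount that was not measured. Exact tests used SciPy 1.17.1 and were tried on simulated counts of independent peaks, with an equal density on all other autosomes. Real peaks are not independent and the autosomes differ in density, so the simulation does not show how often the tests call in these lists. Values over lists add 0.5 to both counts. Named positions were the reproducible members, in each list the 2 highest on each arm, and the 10 in most lists. The INSIG1 start, gene-list members and the 4 promoters were named after their values were seen. Gene names rest on known GRCh37 positions of 107 genes, all in the same order in the RefSeq GRCh38.p14 table, and 82 within 5% of its length. Members and lists were chosen with earlier results of these data known.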

Additional observations from a re-analysis of the deposited data

How the results depend on the processing

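Counts of calls depended on the settings. Lists with a denser short arm numbered 6, but 3 when only peaks of height 5 in the first replicate counted (of 6 lists with enough peaks), 3 with peaks within 100 kb merged, 2 with the first and last 5 Mb of each chromosome left out (of 7), and, in settings chosen after seeing the data, 2 with the arm ended at 53 Mb and 1 with edges drawn in by 2 Mb and ends left out together (of 7). Lists with a sparser long arm went from 2 to 1 at height 5 in both replicates and to 1 with merging. Lists with a denser short than long arm went from 5 to 2 with merging and to 2 with edges and ends left out together. Long-arm pairs called lower in resistant cells went from 2 to 0 at height 5 in both or in the second replicate, with merging, with ends left out, and with edges and ends left out, and to 1 at height 5 in the first replicate. The long-arm difference over lists passed the exact permutation test only with merging (−1.07, p = 0.0286).

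Small differences over lists changed sign. The resistant minus parental short-arm value was 0.23 with edges drawn in by 2 Mb and 0.23 with the arm ended at 53 Mb. The METTL7A minus WT short-arm value was −0.37, −0.033 and −0.20 at height 5 in both, the first and the second replicate, −0.39 with edges drawn in, −0.18 without chromosomes 6, 8 and 12 in the reference, −0.39 with the arm ended at 53 Mb and −0.16 with edges and ends left out. The MYC-tag minus IgG short-arm value was 0.63, 0.29 and 0.36 at the 3 heights in the same order, 0.26 with edges drawn in, 0.27 without chromosomes 6, 8 and 12, 0.26 with the arm ended at 53 Mb and 0.011 without both METTL7A IgG lists. Leaving out 1 list at a time gave −0.35 to −0.05 (short arm) and −1.60 to −1.004 (long arm) for resistant minus parental, −0.18 to 0.21 and −1.17 to −0.44 for METTL7A minus WT, and −0.20 to 0.19 and −0.79 to 0.035 for MYC-tag minus IgG, the 0.035 being without the resistant METTL7A MYC-tag list. Single ratios that crossed 1 were the short arm in resistant WT IgG (0.997 with ends left out, 0.872 with edges and ends left out), resistant METTL7A IgG (0.988) and resistant METTL7A MYC-tag (0.794) in the last setting, and the long arm in parental WT MYC-tag (0.903 at height 5 in the first replicate). The cause was not tested. Of the remaining values, 154 of the main results and 147 of the single ratios were classed as unchanged. For differences and ratios that means the same direction and side of the threshold, and for counts of calls an equal or similar count. A further 34 single values kept their direction but no longer passed. Reproducible peaks were too few for any value under that setting. With replicate numbers as a block, no paired analysis was possible because each list already combines both replicates of its group. Pairing the lists by their other labels, added after the data were seen, changed no call (p = 0.125 to 1, exact paired permutation, smallest possible 0.125, so none could pass).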
